A study of Mus musculus with 8 samples.

Results

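From the cytosolic heat shock system, 10 genes were followed across 8 mouse liver libraries: the regulator Hsf1 and the chaperone genes Hspa1a, Hspa1b, Hspa8, Hsph1, Dnaja1, Dnajb1, Hsp90aa1, Hsp90ab1 and Hspb1. They were chosen by gene symbol, each symbol matched 1 gene identifier, and the 10 genes are part of 55536 with an identifier in the count table. All 10 passed the filter on low counts that left 15375 genes for testing. The knockdown group (n = 4) received adenovirus with a short hairpin RNA against Eif4ebp3, and the control group (n = 4) adenovirus with a hairpin against lacZ, a bacterial gene that mice lack. All mice were lean, wild-type C57BL/6 animals of 2 months that received 0.1 OD of virus, and all livers were taken 1 week later after an overnight fast. Both groups therefore carry the virus, its hairpin and the fast, and no group without virus was analysed here. The promoter of the hairpin, the share of liver cells that took up the virus and whether each library came from its own animal were not stated in the labels.

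The heat shock system protects cytosolic proteins from misfolding. Its transcription factor, HSF1, is held inactive in resting cells and binds heat shock elements, inverted repeats of the bases GAA, when unfolded proteins accumulate. Hsp70 proteins then bind exposed hydrophobic stretches in an ATP-driven cycle, J-domain proteins (the DNAJ genes) hand over the clients, Hsp110 exchanges the nucleotide, and Hsp90 folds client kinases and steroid hormone receptors. Hspa8 and Hsp90ab1 are the constitutive forms and Hspa1a, Hspa1b and Hsp90aa1 the stress-inducible ones.

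Promoter windows of 300 bases, from 250 bases before to 50 bases after an annotated start, were found in RefSeq (build GRCm38.p6) for 6 of the 10 genes: Hspa1a, Hspa1b, Hsph1, Dnaja1, Dnajb1 and Hspb1. Both strands were searched for the 2 shortest forms of the heat shock element, GAANNTTC and TTCNNGAA, each of which reads the same on either strand and which can overlap each other. Either form stood in 6 of the 10 windows of these genes, belonging to 5 genes, and in 15.1% of all 32851 windows of the same length. The 2 windows of Hsph1 overlap and hold the same matches, and windows 2 and 3 of Dnaja1 overlap. The 10 windows are therefore not separate sequences. The windows of the 3 genes with the widest relative spread among control livers (Hspa1a, Hspa1b and Hsph1), of Dnaja1, whose groups did not overlap, and of Hspb1, which was not lower, are printed in the direction of transcription with these matches in capitals.
Hspa1a (chr17:34972107-34972406, minus strand): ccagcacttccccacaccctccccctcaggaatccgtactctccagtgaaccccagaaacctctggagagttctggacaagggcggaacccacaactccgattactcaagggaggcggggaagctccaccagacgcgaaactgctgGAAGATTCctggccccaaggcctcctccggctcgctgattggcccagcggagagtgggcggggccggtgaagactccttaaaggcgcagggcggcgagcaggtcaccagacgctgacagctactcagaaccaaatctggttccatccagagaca
Hspa1b (chr17:34959189-34959488, minus strand): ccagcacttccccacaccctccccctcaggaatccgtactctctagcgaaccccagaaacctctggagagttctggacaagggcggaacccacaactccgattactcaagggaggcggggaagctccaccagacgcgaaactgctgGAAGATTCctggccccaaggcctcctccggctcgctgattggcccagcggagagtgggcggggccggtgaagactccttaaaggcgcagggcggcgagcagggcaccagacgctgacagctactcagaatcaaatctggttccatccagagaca
Hsph1 (chr5:149636287-149636586, minus strand): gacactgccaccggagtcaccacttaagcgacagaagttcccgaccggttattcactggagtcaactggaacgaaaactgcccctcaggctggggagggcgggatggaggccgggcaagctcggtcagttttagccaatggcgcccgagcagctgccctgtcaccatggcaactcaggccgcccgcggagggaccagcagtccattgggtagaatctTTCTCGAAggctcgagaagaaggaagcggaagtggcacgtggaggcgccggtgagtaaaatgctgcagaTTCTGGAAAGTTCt
Dnaja1 (chr4:40722218-40722517, plus strand): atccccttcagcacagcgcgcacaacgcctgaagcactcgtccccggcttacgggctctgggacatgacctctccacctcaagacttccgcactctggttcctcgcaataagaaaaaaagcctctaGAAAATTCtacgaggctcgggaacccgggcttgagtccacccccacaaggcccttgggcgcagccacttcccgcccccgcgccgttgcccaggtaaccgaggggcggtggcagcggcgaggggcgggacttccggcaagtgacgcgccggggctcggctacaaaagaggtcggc
Hspb1 (chr5:135887669-135887968, plus strand): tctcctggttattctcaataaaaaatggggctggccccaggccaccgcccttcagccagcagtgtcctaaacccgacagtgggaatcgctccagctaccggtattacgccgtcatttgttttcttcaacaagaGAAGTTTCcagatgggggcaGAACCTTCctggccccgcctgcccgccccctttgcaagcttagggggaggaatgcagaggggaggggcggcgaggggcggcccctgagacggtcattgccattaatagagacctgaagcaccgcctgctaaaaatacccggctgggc
The windows of Hspa1a and Hspa1b were the same at 296 of 300 bases and held the same match, beginning 104 bases before the start. The Hsph1 window held the longer form, GAANNTTC followed by NNGAA, on the opposite strand, which stood in 0.603% of all windows (198 of 32851), within the 50 bases after the start, and a further TTCNNGAA match beginning 33 bases before it. Hspb1 had 2 matches, beginning 117 and 97 bases before the start, and Dnaja1 had 1 match, in the first of its 3 windows. A match describes the letters of a window and says nothing on whether HSF1 was bound there in these livers.

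Total counts ranged from 24371461 to 32389444 per library. Eif4ebp3, the target, held 9.62, 13.9, 37.2 and 19.5 normalised CPM (counts scaled to a common library size) in knockdown replicates 1 to 4, against 289, 215, 204 and 49.3 CPM in control replicates 1 to 4, lower in every knockdown library than in any control, with control replicate 4 the control nearest to the knockdown samples. That library also stood apart on the second principal component of log2 CPM, which held 6.8% of the variance (score 44.5, the other libraries between -16.9 and 9.98). The sample codes carry the letter D for replicate 4 of each group and C for the others, and its meaning was not stated there. The fold changes and count ratios of the chaperone genes are therefore also given for the samples coded C alone (3 knockdown, 3 control).

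Across the 10 genes, 3 fell in the knockdown livers and 0 rose, by edgeR's quasi-likelihood test with Benjamini-Hochberg adjustment over all genes tested (adjusted p under 0.05), with 0 higher at an unadjusted p under 0.05 and 0 by DESeq2 too. Of all genes tested 27.8% fell and 29.5% rose, together 57.2%, so the number that fell is near the background. The genes that fell were the inducible Hsp70 genes Hspa1a and Hspa1b and the J-domain gene Dnaja1. The log2 fold change was below 0 for 7 of the 10 genes, with a median of -0.30, against -0.00 for all genes tested. Among the samples coded C alone, 7 fell and 0 rose, where 27.8% of all genes fell and 29.6% rose (together 57.4%), and the median was -0.35. The 4 genes added there were Hspa8, Hsph1, Hsp90ab1 and Hsf1, and the 7 also fell when control replicate 4 alone was left out (28.6% of all genes fell and 30.6% rose there). Both subsets leave out control replicate 4, the lowest control for 10 of the 10 genes. Leaving it out raises the control mean of each gene, so the added falls are no separate support. The groups did not overlap for 1 of the 10 genes in all 8 livers, against 52.1% of all genes, and for 7 among the samples coded C, against 65% of all genes. Without scaling factors (total-count scaling) the median of all genes shifted by 0.57 on the log2 scale. There 5 of the 10 rose (Hsp90aa1, Hspb1, Dnajb1, Hsf1 and Hsp90ab1; 63.9% of all genes) and 0 fell (7.73% of all genes), so each change here is relative to the median gene.

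**Figure D1:**
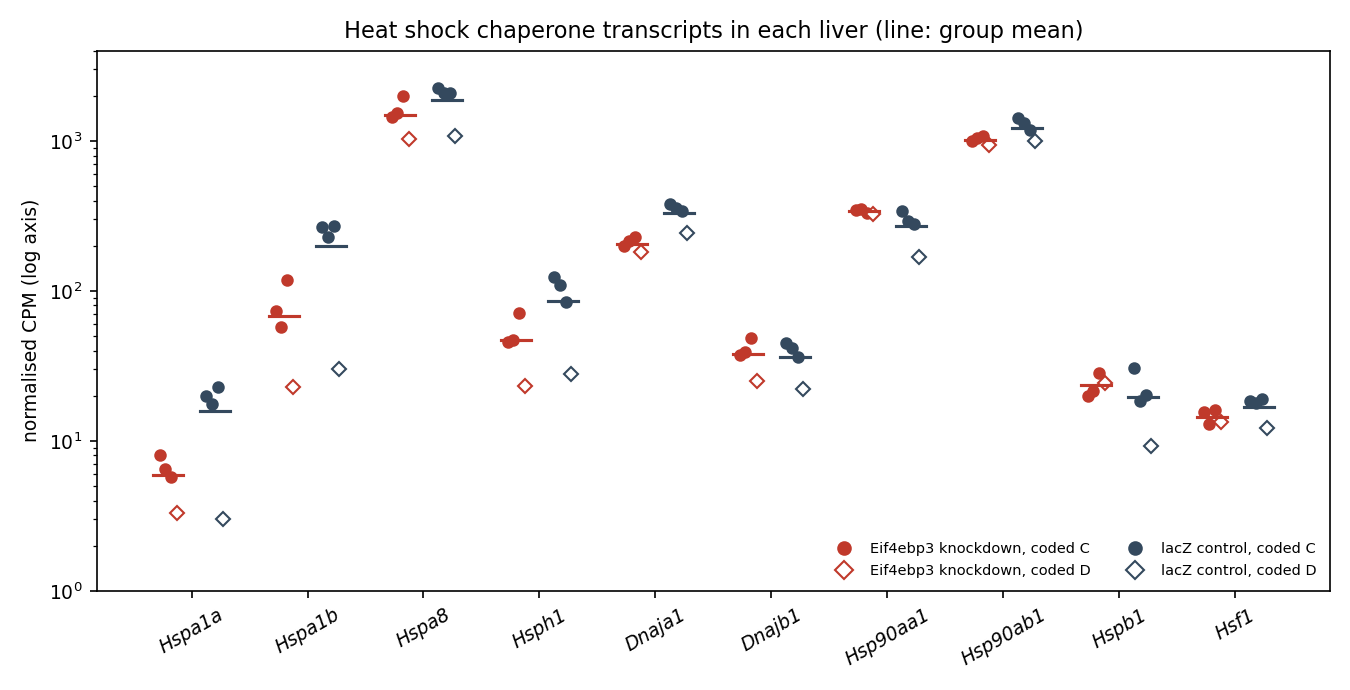
Normalised CPM (log axis) of the 10 genes in each liver, with Eif4ebp3 knockdown on the left of each pair and lacZ control on the right; lines are arithmetic group means, circles are samples coded C and open diamonds samples coded D. The open diamond of the controls is the lowest control for every gene shown.

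The inducible Hsp70 genes had the largest fold changes of the 10 with TMM scaling, whereas under total-count scaling Hsp90aa1 and Hspb1 exceeded Hspa1a in size. Hspa1a and Hspa1b are intronless neighbours on chromosome 17 (mm10 34969190 to 34972156 and 34956436 to 34959238, both on the minus strand) that encode nearly the same inducible Hsp70. Hspa1b held 73, 57.5, 119 and 23 CPM in knockdown replicates 1 to 4, against 266, 228, 270.4 and 30 CPM in control replicates 1 to 4. All knockdown libraries lay far below control replicates 1 to 3, but control replicate 4 lay among the knockdown libraries, so the groups overlapped. Hspa1b averaged 68.2 ± 39.9 CPM in knockdown livers and 198.7 ± 114 CPM in control livers (SD, n = 4 each), a log2 fold change of -1.55 ± 0.60 (SE; 2.92-fold lower; adjusted p = 0.0463, edgeR).

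Hspa1a showed the same pattern at a lower level. It held 8.07, 6.45, 5.77 and 3.31 CPM in knockdown replicates 1 to 4, against 19.9, 17.5, 23 and 3.01 CPM in control replicates 1 to 4. The lowest of all 8 values was that of control replicate 4. The log2 fold change was -1.43 ± 0.48 (SE; adjusted p = 0.0247, edgeR). The authors' deposited table lists -1.18 for both genes, marking Hspa1a as significant and Hspa1b as not. It marks 6.76% of its 55536 genes, which include those that failed the filter here. DESeq2 run here gave -1.42 for Hspa1a and -1.54 for Hspa1b, so the deposited fold changes are smaller in size and not the same estimate. In the samples coded C the groups did not overlap for either gene. There the log2 fold change was -1.57 ± 0.16 for Hspa1a (adjusted p = 3.88e-05, edgeR) and -1.62 ± 0.23 for Hspa1b (adjusted p = 0.000321, edgeR). The calls rested on single libraries in the full set: without any 1 of knockdown replicates 3 or 4 or control replicates 1, 2 or 3, the adjusted p of Hspa1a (edgeR) was between 0.0513 and 0.0729. That of Hspa1b was between 0.0843 and 0.105 without any 1 of knockdown replicates 1, 2 or 4 or control replicates 1, 2 or 3, and 0.0804 by DESeq2 with all libraries. Under total-count scaling the log2 fold changes were -0.82 (adjusted p = 0.134) and -0.96 (adjusted p = 0.154).

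Counts of the 2 copies are estimates that can share reads, since 58.8% of the 50-base words of the Hspa1a transcript also stand in Hspa1b and 62.3% of those of Hspa1b in Hspa1a. Hspa1a took 9.31 ± 3.34% of the counts of the pair in knockdown livers and 7.76 ± 0.99% in control livers (SD, n = 4 each). Summed, the pair held 81.1, 64, 125 and 26.3 CPM in knockdown replicates 1 to 4, against 286, 246, 293 and 33 CPM in control replicates 1 to 4. The pair fitted as 1 gene had a log2 fold change of -1.54 ± 0.59 (SE; adjusted p = 0.0436, edgeR). Another 564 exon bases of Hspa1a overlap Gm20481 on the opposite strand, and whether reads were counted by strand was not stated.

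Hspa8, the constitutive Hsc70 (chromosome 9, 40800984 to 40810087), was the most abundant of the 10 genes. It held 1457, 1528, 1990 and 1036 CPM in knockdown replicates 1 to 4, against 2272, 2094, 2085 and 1073 CPM in control replicates 1 to 4. Control replicate 4 again lay among the knockdown libraries, and the groups overlapped. Hspa8 averaged 1502 ± 390.4 CPM in knockdown livers and 1881 ± 545 CPM in control livers (SD, n = 4 each), with a log2 fold change of -0.32 ± 0.24 that did not pass (adjusted p = 0.273, edgeR). Among the samples coded C it was -0.38 ± 0.14 (adjusted p = 0.0415), and under total-count scaling 0.26 (adjusted p = 0.298). The small RNA genes Snord14c, Snord14d and Snord14e lie within its exons. The ratio of inducible Hsp70 counts (Hspa1a plus Hspa1b) to Hspa8 counts, which does not depend on the scaling of libraries, was 0.0557, 0.0419, 0.0628 and 0.0254 in knockdown replicates 1 to 4, against 0.126, 0.117, 0.141 and 0.0307 in control replicates 1 to 4. It was 2.04-fold lower in knockdown livers over all 8 samples, a difference that did not pass (two-sided exact permutation test, p = 0.114, adjusted over 3 ratios 0.114). Without control replicate 4 it passed, at a log2 difference of -1.54 (exact permutation test, adjusted p = 0.0429). In the samples coded C the groups did not overlap, at a log2 difference of -1.28, where 3 against 3 samples cannot give an exact permutation p below 0.1.

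Hsph1 (chromosome 5, 149614287 to 149636376) encodes Hsp105, an Hsp110 protein that exchanges the nucleotide of Hsp70. It held 45.4, 47.4, 71.8 and 23.4 CPM in knockdown replicates 1 to 4, against 123, 109, 84.6 and 28.1 CPM in control replicates 1 to 4. As with Hspa1b, both libraries coded D were the lowest of their group. The mean was 47 ± 19.8 CPM in knockdown livers and 86.3 ± 42 CPM in control livers (SD, n = 4 each), with a log2 fold change of -0.88 ± 0.41 that did not pass (adjusted p = 0.0899, edgeR). Without knockdown replicate 3 it passed (-1.16, adjusted p = 0.0484), as it did without control replicate 4 (-1.18, adjusted p = 0.00467). It was -0.95 ± 0.19 among the samples coded C (adjusted p = 0.00238, edgeR), and -0.29 under total-count scaling (adjusted p = 0.51).

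Of the J-domain partners, Dnaja1 fell and Dnajb1 did not pass. Dnaja1 (chromosome 4, 40722150 to 40737149), a farnesylated J-domain protein of the cytosol, held 199.8, 214, 231 and 181.5 CPM in knockdown replicates 1 to 4, against 378, 356, 340.1 and 242 CPM in control replicates 1 to 4. Every knockdown library lay below every control. The log2 fold change was -0.67 ± 0.13 (SE; adjusted p = 0.00143, edgeR), and it stayed between -0.80 and -0.60 without any 1 library (adjusted p at most 0.00604). Among the samples coded C it was -0.74 ± 0.09 (adjusted p = 0.000138). Under total-count scaling it was -0.10 and did not pass (adjusted p = 0.442). DESeq2 with all libraries gave -0.67 (adjusted p = 2.01e-05). The authors' deposited DESeq2 comparison lists -0.66 for Dnaja1 with an adjusted p of 2.01e-05, yet does not mark it as significant (6.76% of its 55536 genes are marked). Hspa1a is marked there at a larger adjusted p (0.046), so the mark does not follow the adjusted p alone. Exons of Dnaja1 share 608 bases with Smu1 and 249 with Gm6297 on the opposite strand.

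Dnajb1 (chromosome 8, 83608193 to 83612653), the inducible J-domain partner of Hsp70, held 37.7, 39.4, 48.5 and 25.2 CPM in knockdown replicates 1 to 4, against 44.7, 41.4, 36.1 and 22.1 CPM in control replicates 1 to 4. The groups overlapped over nearly their whole range, and the log2 fold change was 0.06 ± 0.23 (SE; adjusted p = 0.83, edgeR), or 0.04 ± 0.12 among the samples coded C (adjusted p = 0.803). Total-count scaling gave 0.64, which passed as higher (adjusted p = 0.0153, edgeR). The ratio of Dnajb1 to Dnaja1 counts was 0.189, 0.184, 0.21 and 0.139 in knockdown replicates 1 to 4, against 0.118, 0.116, 0.106 and 0.0912 in control replicates 1 to 4. Each knockdown ratio exceeded each control ratio, by 1.66-fold on average (two-sided exact permutation test, p = 0.0286, the smallest that 4 against 4 samples allow, adjusted over 3 ratios 0.0429). Without control replicate 1, 2 or 3 the adjusted p was 0.0857, and without control replicate 4 it was 0.0571 (exact permutation test). The log2 difference was 0.78 among the samples coded C.

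The ratio between the Hsp90 genes differed between the groups, while neither gene passed by itself. With the code letter as a covariate both passed, Hsp90aa1 as higher (0.37, adjusted p = 0.0385) and Hsp90ab1 as lower (-0.26, adjusted p = 0.0378, edgeR). Hsp90aa1, the inducible form (chromosome 12, 110690605 to 110702728), held 349, 350.3, 332 and 328 CPM in knockdown replicates 1 to 4, against 341, 292, 279 and 169.7 CPM in control replicates 1 to 4. The knockdown libraries lay close together while control replicate 4 lay far below the other controls, and the groups overlapped through control replicate 1. The log2 fold change of 0.33 ± 0.17 did not pass (adjusted p = 0.12, edgeR), nor did the 0.18 ± 0.10 of the samples coded C (adjusted p = 0.157). Without control replicate 1 it was 0.46 and passed (adjusted p = 0.04), while total-count scaling gave 0.92, which passed (adjusted p = 0.00026).

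Hsp90ab1, the constitutive form (chromosome 17, 45567775 to 45573271), held 997, 1042, 1086 and 948 CPM in knockdown replicates 1 to 4, against 1418, 1316, 1187 and 998 CPM in control replicates 1 to 4. All controls but replicate 4 lay above all knockdown libraries. The log2 fold change was -0.27 ± 0.12 (SE; adjusted p = 0.0639, edgeR), among the samples coded C it was -0.33 ± 0.11 and passed (adjusted p = 0.0251), while total-count scaling gave 0.30, which passed in the other direction (adjusted p = 0.0112). The ratio of Hsp90aa1 to Hsp90ab1 counts was 0.35, 0.336, 0.305 and 0.346 in knockdown replicates 1 to 4, against 0.241, 0.222, 0.235 and 0.17 in control replicates 1 to 4. The knockdown ratios were all above the control ratios, by 1.55-fold on average (two-sided exact permutation test, p = 0.0286, adjusted over 3 ratios 0.0429), and by a log2 difference of 0.51 among the samples coded C, again without overlap. Without control replicate 1, 2 or 3 the adjusted p of this ratio was 0.0857 (exact permutation test).

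**Figure D2:**
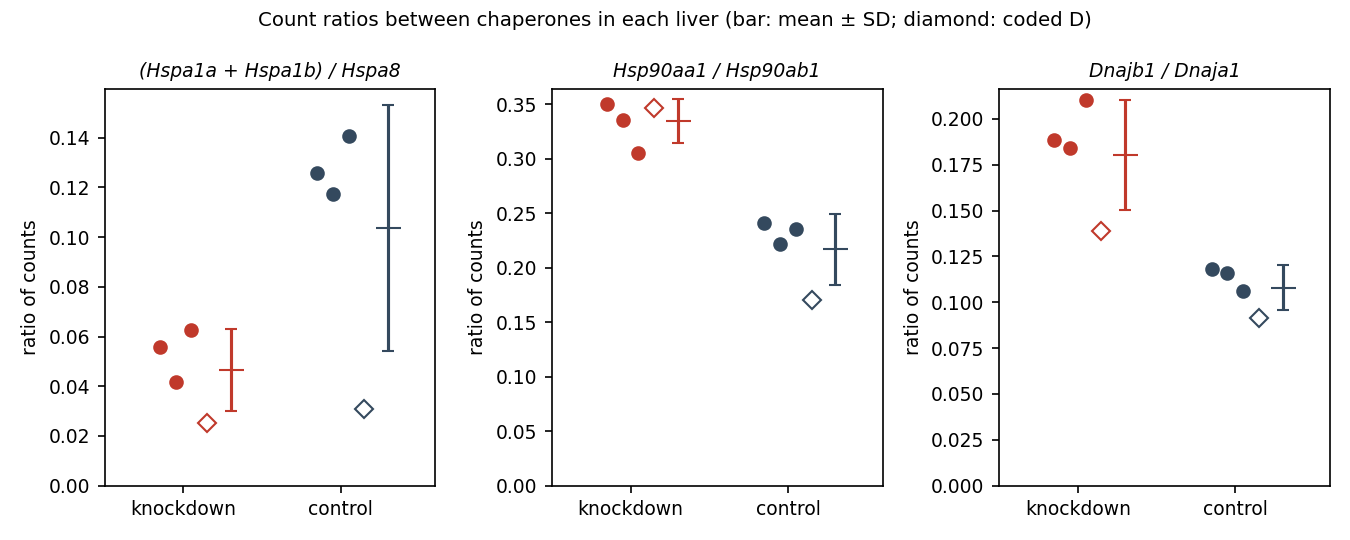
Ratio of counts in each liver for inducible over constitutive Hsp70, inducible over constitutive Hsp90, and Dnajb1 over Dnaja1, with knockdown on the left and control on the right; bars are mean ± SD of 4 samples and open diamonds are samples coded D. The Hsp90 and J-domain ratios are higher in every knockdown sample, while the Hsp70 ratio of control replicate 4 (0.0307) lies among the knockdown samples.

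Hspb1 and Hsf1 did not pass. Hspb1, the small heat shock protein Hsp25 (HSP27 in human), which holds unfolded proteins without ATP (chromosome 5, 135887919 to 135889563), held 19.9, 21.5, 28.2 and 24.2 CPM in knockdown replicates 1 to 4, against 30.5, 18.5, 20.3 and 9.27 CPM in control replicates 1 to 4. The control values spanned the knockdown values, and the log2 fold change was 0.26 ± 0.27 (SE; adjusted p = 0.447, edgeR), or 0.00 among the samples coded C (adjusted p = 0.993). Total-count scaling gave 0.84 for Hspb1, which passed as higher (adjusted p = 0.00982, edgeR). Hsf1, the regulator (chromosome 15, 76477422 to 76501913), held 15.7, 13, 16 and 13.4 CPM in knockdown replicates 1 to 4, against 18.5, 17.9, 19.1 and 12.3 CPM in control replicates 1 to 4. Its log2 fold change of -0.22 ± 0.14 did not pass (adjusted p = 0.204, edgeR). Among the samples coded C, where the groups did not overlap, it was -0.31 ± 0.11 (adjusted p = 0.0338), while total-count scaling gave 0.35, which passed in the other direction (adjusted p = 0.0269).

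**Figure D3:**
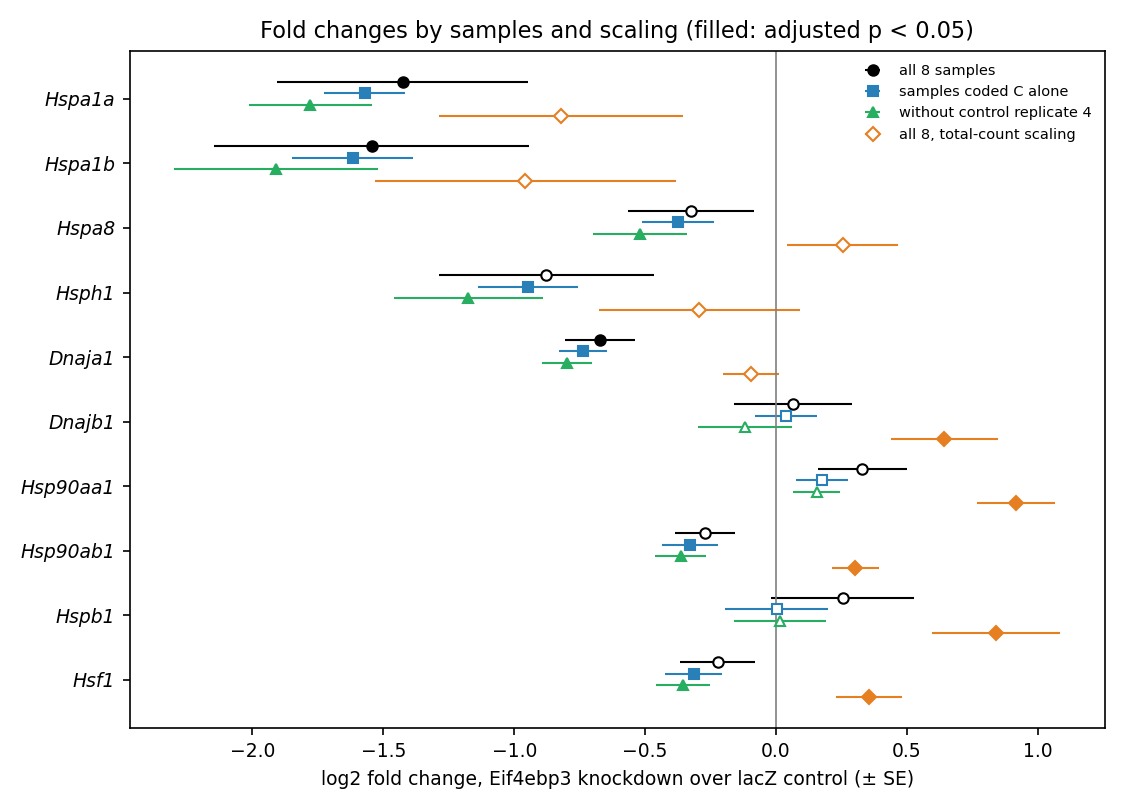
Log2 fold change of Eif4ebp3 knockdown over lacZ control (± SE) for the 10 genes with all 8 samples, the samples coded C alone, all but control replicate 4, and all 8 under total-count scaling; filled symbols have an adjusted p under 0.05. Leaving out the libraries coded D narrows the errors, and total-count scaling moves every gene to the right.

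Control replicate 4 was the lowest control for 10 of the 10 genes, as it was for 31.6% of all genes tested, and knockdown replicate 4 the lowest knockdown sample for 8 of the 10, against 23.8% of all genes. Hspa1b of control replicate 4 was at 0.118 times the mean of the other controls, and 0.0664% of the 13556 genes with a mean of at least 1 CPM had as low a ratio there. Hspa1a (0.15), Hsph1 (0.266) and Hspb1 (0.401) were also far below the other controls, whereas Hsp90ab1 was at 0.764. In knockdown replicate 4, Hspa1b was at 0.277 and Hsph1 at 0.427 times the mean of the other knockdown samples, while Hspb1 was at 1.04. In the libraries coded D, knockdown minus control on the log2 scale was 0.13 for Hspa1a and Hsf1, 0.95 for Hsp90aa1 and 1.38 for Hspb1. It was 0.19 for Dnajb1, -0.05 for Hspa8, -0.07 for Hsp90ab1, -0.26 for Hsph1, -0.38 for Hspa1b and -0.42 for Dnaja1. The difference of the knockdown effect between the letters D and C rests on a single library per group coded D, so a miss says little. It had an unadjusted p under 0.05 for 4 of the 10 genes (9.71% of all genes) by edgeR, namely Hspa1a (0.000959), Hsp90aa1 (0.00335), Hspb1 (0.00809) and Hspa1b (0.0261). After Benjamini-Hochberg adjustment over all genes, 0 of the 10 passed (0.0065% of all genes did), the lowest adjusted p being 0.245 for Hspa1a; this difference was not fitted with DESeq2.

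In levels per kilobase of the length that the authors list, the order in knockdown livers was Hspa8 (628 ± 163 CPM per kilobase), Hsp90ab1 (404 ± 23.6), Hsp90aa1 (104 ± 3.51), Dnaja1 (36.7 ± 3.72), Hspb1, Hspa1b, Hsph1, Dnajb1, Hsf1 (6.9 ± 0.74) and Hspa1a (1.99 ± 0.67; SD, n = 4). The values from Hspb1 to Dnajb1 ran from 26 to 12.6 CPM per kilobase. Hspb1, Hspa1b and Hsph1 each lay within the summed SD of the next gene, while Dnajb1 did not. In control livers Hspa8 (786 ± 228 CPM per kilobase) and Hsp90ab1 (488 ± 71.8) again led, followed by Hsp90aa1 (82.5 ± 22.1), Hspa1b (70.9 ± 40.7) and Dnaja1 (58.5 ± 10.7), which did not differ beyond their spread. Hsph1, Hspb1, Dnajb1, Hsf1 and Hspa1a came last in the controls, at 27.5 to 5.34 CPM per kilobase, each within the spread of the next. Hspa1b thus stood at rank 6 of 10 in the knockdown livers and at rank 4 in the controls.

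The genes whose deviations from the group means over the 8 samples were most like those of Hspa1a, among 13546 other genes with a mean of at least 1 CPM, were Nup98 (Pearson r = 0.983), Iars (0.98), Rsf1 (0.98), Eef1a1 (0.979) and Praf2 (0.977). Each was lowest in control replicate 4 among the controls and in knockdown replicate 4 among the knockdown samples, and without control replicate 4 the values were 0.845 to 0.944. Hspa1b followed Hspa1a with r = 0.929, or 0.738 without control replicate 4, while Hspb1 had 0.745 and -0.24. These values describe 8 libraries that share their depth and scaling and carry no test.

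Genes that work with these chaperones went both ways. Of 15 Hsp90 cochaperones, 5 fell and 2 rose, with a median log2 fold change of -0.24 (27.8% of all genes fell and 29.5% rose). Among those that fell were Ahsa2, a homologue of the Hsp90 ATPase activator (-0.60 ± 0.13, adjusted p = 0.00232), and Pih1d1 (-0.31 ± 0.08, adjusted p = 0.00623; SE, edgeR). Without control replicate 4, 8 fell and 1 rose (28.6% and 30.6% of all genes), as among the samples coded C (27.8% and 29.6%). Of 8 BAG and related Hsp70 cofactors, 1 fell and 2 rose: Bag4 held 30.6 ± 1.47 CPM in knockdown livers and 58.9 ± 5.32 CPM in control livers, Bag2 2.75 ± 0.56 CPM in knockdown livers and 0.84 ± 0.05 CPM in control livers, and Hspbap1 6.28 ± 0.36 CPM in knockdown livers and 4.14 ± 0.44 CPM in control livers (SD, n = 4 each). Bag3, a cochaperone gene known as an HSF1 target, had a log2 fold change of -0.06 ± 0.19 (adjusted p = 0.821) and is named after its value was seen.

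Of 11 other J-domain genes, 3 fell (Dnajb2, Dnajb4 and Dnajb6) and 2 rose (Dnajc8 and Dnajc9), where 27.8% of all genes fell and 29.5% rose. Dnajb6, a suppressor of protein aggregation, fell by 0.47 ± 0.08 on the log2 scale (adjusted p = 0.000434) and Dnajb4 by 0.60 ± 0.11 (adjusted p = 0.000998), while Dnajc9, which is also a histone chaperone, rose by 1.55 ± 0.11, to 26 ± 1.08 CPM in knockdown livers against 8.85 ± 1.28 CPM in control livers (adjusted p = 1.35e-06, edgeR). By edgeR 0 of 7 other Hsp70 and Hsp110 genes passed (1 at an unadjusted p under 0.05, Hspa14, and 0 by DESeq2), and 1 of 8 genes of HSF factors and HSF1 regulators rose. Of the 7 other small heat shock protein genes 3 were tested: Hspb8, which acts with Bag3, fell (138.7 ± 16.6 CPM in knockdown livers, 194 ± 16.5 CPM in control livers), Cryab rose (2.7 ± 0.25 CPM in knockdown livers, 1.61 ± 0.58 CPM in control livers), and Hspb6 did not pass (-0.20 ± 0.13, adjusted p = 0.216, edgeR). The call of Cryab was lost among the samples coded C (0.69, adjusted p = 0.0506, edgeR). Hspb3, which was not tested, had no counts. In the cytosolic chaperonin TRiC and its partner prefoldin, 4 of 14 fell, among them Tcp1 (-0.43 ± 0.09), and 3 rose, among them Vbp1 (0.60 ± 0.11) and Pfdn1 (0.49 ± 0.09). Without control replicate 4, 8 of these 14 and 5 of the 11 J-domain genes fell (28.6% of all genes), and among the samples coded C 7 and 4 fell (27.8% of all genes).

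Of 13 mitochondrial chaperones and proteases, 8 fell and 3 rose (27.8% and 29.5% of all genes), with a median log2 fold change of -0.49. In the samples coded C alone 9 fell and 3 rose (27.8% and 29.6% of all genes). Hspd1, the mitochondrial chaperonin Hsp60, held 376 ± 17.6 CPM in knockdown livers and 592 ± 74.1 CPM in control livers, Dnaja3 97.9 ± 11.4 CPM in knockdown livers and 173 ± 23.1 CPM in control livers, and the protease subunit Clpx 251 ± 19.2 CPM in knockdown livers and 442 ± 34.8 CPM in control livers (SD, n = 4 each; adjusted p at most 0.000261, edgeR). Under total-count scaling 2 of these 13 fell and 5 rose (7.73% and 63.9% of all genes). With this scaling the medians of all lists of related genes lay at 0.08 to 0.60, against 0.56 for all genes tested. There the calls of Dnajb4, Dnajb6, Ahsa2, Hspb8, Tcp1 and Hspd1 were lost and Pih1d1 passed in the other direction, while Bag4, Dnaja3 and Clpx still fell.

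**Figure D4:**
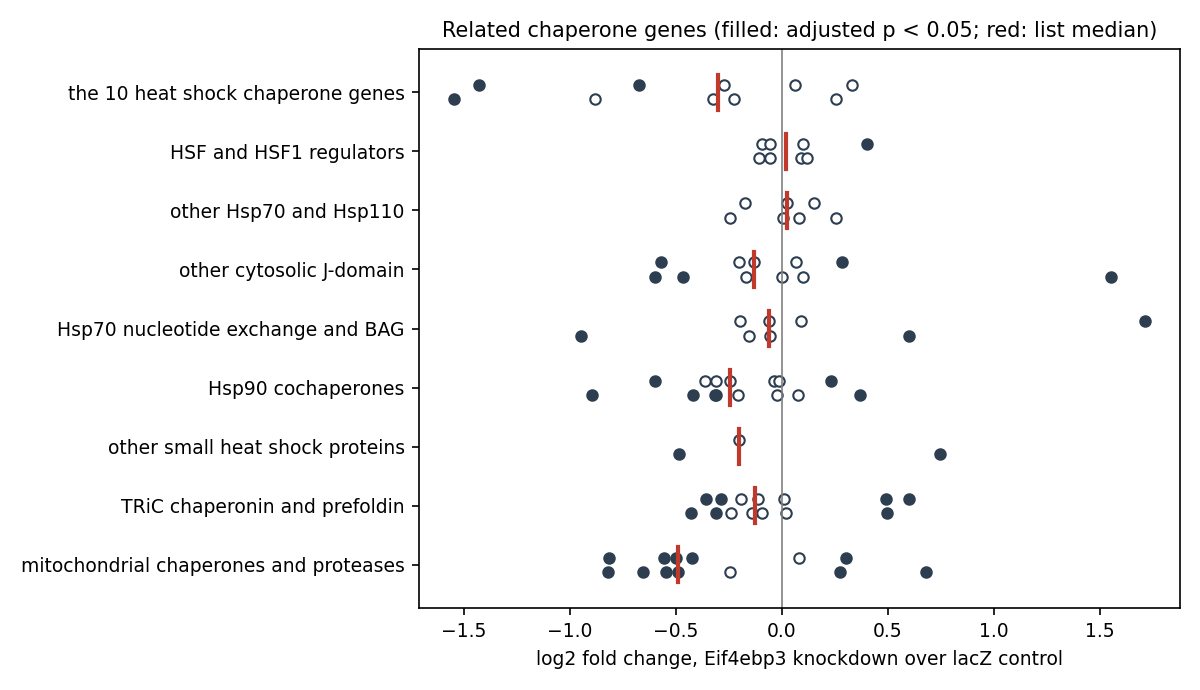
Log2 fold change of Eif4ebp3 knockdown over lacZ control for the 10 heat shock chaperone genes and 8 lists of related genes; each point is a gene, filled points have an adjusted p under 0.05 and red lines are medians. The list medians run from -0.49 for the mitochondrial list to 0.03 for the other Hsp70 genes.

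Markers of liver cell types differed between the groups, and in bulk RNA fewer cells of a type and less RNA per cell cannot be told apart. The counts below stand beside 27.8% of all genes tested that fell and 29.5% that rose, together 57.2%. Of 6 hepatocyte markers 5 fell, at a summed level of 45330 to 59110 CPM in knockdown livers and 51690 to 74300 CPM in control livers, with control replicate 4 at 51690 and the other controls at 69700 CPM or more. Of these markers Cyp2e1 fell by 2.18, Tat by 2.56 and Apoa1 by 1.19 on the log2 scale, and all 3 were still abundant in every library. Alb, which made up most of the summed level, did not pass (0.04 ± 0.15, adjusted p = 0.83, edgeR). It held 42080 ± 4187 CPM in knockdown livers and 40830 ± 4891 CPM in control livers. Of 7 macrophage markers 6 rose (summed 1206 to 1427 CPM in knockdown livers, 477 to 647 CPM in control livers), of 7 T and NK cell markers 6 rose and Cd4 fell (38.4 to 51.9 CPM in knockdown livers, 15.8 to 26.1 CPM in control livers), and of 7 stellate cell markers 6 rose (455 to 800.2 CPM in knockdown livers, 116 to 142 CPM in control livers). Of 5 cholangiocyte markers 3 rose, of 6 endothelial markers 1 rose and 2 fell, of 3 erythroid markers 1 rose and 1 fell, and neither of the 2 neutrophil markers tested passed. Of 14 immediate early genes, which respond within minutes to stress or handling, 11 rose and 1 fell. Their summed level was 480 to 568 CPM in knockdown livers and 232 to 460.4 CPM in control livers, where control replicate 4 held 460.4 CPM and the other controls at most 303 CPM. Under total-count scaling 4 hepatocyte markers fell and 1 rose (7.73% and 63.9% of all genes), while the 2 endothelial falls and the fall among the immediate early genes were lost. The part of cell make-up and of handling in the chaperone differences was not tested.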

How the data were processed

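Liver RNA of 8 samples, depleted of ribosomal RNA per the labels' protocols, was sequenced. The submitters' processing notes list Bowtie2 2.2.9, fastp 0.19.5, SAMtools 1.9, GATK 3.8 and the build mm10; the counting program, annotation and strandedness were not stated. The authors deposited expected counts per gene (10.9% of values not whole), which were rounded, and their own knockdown comparison, which holds a fold change (ratio), its log2 value and p-values per gene, per the file headers. The 645 assembled loci without a gene identifier (0.676 to 1.08% of counts) were left out. For Hspa1a, Hspa1b, Hspa8, Hsp90aa1 and Dnaja1 no deposited count was whole, so these counts are estimates and less certain.

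Groups were compared with edgeR 4.0.16 in R 4.3.3 (filterByExpr, TMM factors, glmQLFit and glmQLFTest, Benjamini-Hochberg adjustment over 15375 genes), tested on simulated data. The standard error is the log2 fold change divided by the square root of F. CPM used TMM-scaled totals. Positions come from GENCODE M21 (mm10). Count ratios were tested by exact permutation over samples. Named genes were Eif4ebp3, the 10 members, up to 3 called genes with the smallest p of each list of related chaperone genes, and the 5 genes most like Hspa1a (log2 of CPM plus 0.5); some genes under this rule are not reported here. Other list genes, such as Alb, are named outside this rule. The members and lists were chosen with earlier results of these data known. The labels do not say that samples are separate cultures or litters, so p-values measure only the spread between these samples; replicates differed by more than counting error (chi-square per degree of freedom at least 8.94). Alternatives were DESeq2 1.42.0, other scaling factors, other filters, covariates and leaving out samples; the test of the difference between code letters was added after the data were seen.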

Additional observations from a re-analysis of the deposited data

Results flagged for a closer look

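Hspa8 of control replicate 4, at 1073 CPM, lay far from the other controls (2085 to 2272 CPM): its gap to the nearest control, as a share of the group's range, exceeded Dixon's critical value for 4 values. It was the only 1 of 26 groups of values (10 genes and 3 ratios in each of the knockdown and control groups) past that limit, and chance flags about 1 in 20 groups.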

How the results depend on the processing

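Total-count scaling changed most: 9823 genes were higher and 1189 lower, 5 of the 10 chaperone genes were higher and 0 lower, and Hsf1 (0.35) and Hsp90ab1 (0.30) passed in the other direction. With the code letter as a covariate 1 of the 10 was higher and 5 lower, and among the samples coded C 7 were lower. Leaving out 1 library gave 1 to 7 lower (7 without control replicate 4; 1 without knockdown replicate 4 or control replicate 1, 2 or 3) and 0 to 1 higher, and over all genes 4091 to 4811 higher and 3764 to 4492 lower. Dnaja1 passed in 17 of 18 alternatives, Hspa1a in 11 of 17 and Hspa1b in 8 of 17. DESeq2 called 2 lower and 0 higher. The log2 differences of the ratios without 1 library (adjusted p 0.0429 to 0.0857 for the first 2) were 0.52 to 0.69 (Hsp90aa1 to Hsp90ab1), 0.65 to 0.85 (Dnajb1 to Dnaja1) and -1.54 to -0.76 (Hspa1a plus Hspa1b to Hspa8, which passed without control replicate 4, at an exact permutation adjusted p of 0.0429). Among the samples coded C the first 2 were 0.51 and 0.78, and 3 against 3 samples cannot pass. Over all genes tested, same-numbered samples showed little pairing (correlations of their deviations -0.13 to 0.15). For the 10 genes the replicate block lowered the SE, from 0.60 to 0.24 for Hspa1b but only from 0.273 to 0.269 for Hspb1. With the replicate block 4 of the 10 genes were lower and 0 higher, 4414 genes rose and 4067 fell, and the ratios (0.64 and 0.73) could not pass with 4 pairs. Depth limits none of the 10 genes to fewer than 66 counts in a library.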
